A study of Mus musculus with 8 samples.

Results

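Smooth muscle cells and pericytes, together called mural cells, wrap the vessels of the heart, and 10 genes that mark them were followed here across the hearts of newborn mice. The genes are Myh11, Cnn1, Tagln and Smtn of the contractile apparatus of smooth muscle, Pdgfrb, Rgs5, Abcc9, Mcam and Notch3 of pericytes, and Des, a filament gene that mural cells share with cardiomyocytes. They were taken by gene symbol from the 54532 genes of the deposited table, and all 10 were found. RNA came from whole hearts harvested at postnatal day 4. The 4 control libraries came from Mrps5 fl/+ mice, which have no Cre and carry 1 floxed allele of Mrps5, the gene of a mitochondrial ribosomal protein. The 4 cHET libraries came from Mrps5 fl/+; Myh6-Cre littermates, in which Cre under the Myh6 promoter removes that allele from late embryonic life onwards. The Myh6 promoter is known for its activity in cardiomyocytes, so mural cells are not cells in which this Cre is known to act. No group carried Cre without the floxed allele, so Cre and the lost allele cannot be told apart. P-values measure the spread between the 4 libraries of a group, which the series text presents as biological replicates.

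Smooth muscle cells of arteries contract through a myosin of their own, and the genes of this apparatus are switched on by the transcription factor SRF with its partner myocardin. Pericytes sit on capillaries, where they are recruited by PDGF-B from the endothelium, which acts on the receptor that Pdgfrb encodes, and Notch3 signalling keeps mural cells mature. In the newborn heart several of these genes are not private to mural cells, since immature cardiomyocytes, endothelial cells and fibroblasts transcribe some of them too.

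Depth was 15490622 to 19234777 reads per library, rebuilt from the deposited FPKM, a read count scaled to gene length and library depth. Mrps5, the targeted gene, stood at 11.6, 6.27, 10.1 and 5.15 FPKM in control 1 to 4. In cHET 1 to 4 Mrps5 stood at 6.84, 7.12, 6.995 and 7.68 FPKM. The means were 8.27 ± 3.05 and 7.16 ± 0.365 FPKM (SD, n = 4; exact two-sided permutation test, p = 0.486). The libraries labelled control 2 and control 4 lay below every cHET library, and every direction below rests on the labels as given. Several libraries stood apart from the rest. Summed FPKM of all genes was 450265 in control 1 and 467217 in control 2, and 353291 to 392047 in the other libraries. Genes encoded by mtDNA made up 26.8% of that sum in control 1 and 17.9 to 23.7% in the others. Summed FPKM of 4 red cell genes was 8038 in control 2 and 993 to 2554 in the other 7. Summed FPKM of 4 atrial genes was 241 in cHET 3 and 1459 to 5277 in the other 7. The brown fat genes Ucp1 and Adipoq were highest in control 1 and control 2, at 17.8 and 16.7 FPKM for Ucp1. Sex, read from Xist and Ddx3y, was male in control 1, control 3 and cHET 1 and female in the other 5.

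Tagln, which encodes transgelin, an actin-binding protein that is among the most abundant of smooth muscle, was listed at very low values, and most of its exonic sequence overlaps other genes. The gene (ENSMUSG00000032085, chromosome 9, 45929619 to 45936058, minus strand, GRCm38) shares 1349 of its 1988 exonic bases (67.9%) with genes on the other strand. The antisense gene Gm48529 covers 1241 of them (62.4%) and the protein-coding gene Pcsk7 covers 108 (5.43%). Among 11319 protein-coding genes with a mean of at least 1 FPKM, the median share was 0% and 26 (0.230%) reached the share of Tagln. Tagln itself lay under that filter. Genes listed as low as Tagln are thus not in this background, and their overlap was not counted. The first 60 coding bases of Tagln, at chr9:45931702-45931761, are given here because they lie in an exon of both genes. Each is written 5′ to 3′ on its own strand, from GENCODE M21 transcripts, with the start codon of Tagln, and its complement in Gm48529, in capitals.
Tagln: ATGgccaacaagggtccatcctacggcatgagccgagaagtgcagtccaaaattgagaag
Gm48529: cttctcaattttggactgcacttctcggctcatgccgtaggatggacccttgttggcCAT

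Without strand, reads from the 2 genes cannot be told apart over these bases, and the strand setting of the counting is not given in the sources used here. Tagln stood at 0.648, 1.31, 0.733 and 0.921 FPKM in control 1 to 4, from 20, 42, 23 and 30 reads. In cHET 1 to 4 it stood at 0.706, 0.984, 0.407 and 0.753 FPKM, from 24, 39, 13 and 26 reads. Control 2 was the highest and cHET 3 the lowest, and the groups overlapped. The 95% exact Poisson interval, which covers counting error only, ran from 0.943 to 1.77 FPKM in control 2 and from 0.217 to 0.696 FPKM in cHET 3. Gm48529 was itself at 0.466 to 1.14 FPKM, and Pcsk7 at 6.33 to 8.23 FPKM. Its relative Tagln2, which shares 0% of its exonic bases, stood at 86.2 to 141 FPKM. Nppa and Pln also share most of their exonic bases, 61.5% and 64.7%, and stood at 163 to 1733 and 194 to 439 FPKM. How many of their reads fell on unshared bases was not measured, and Tagln has 639 unshared exonic bases. The part of the overlap in the values of Tagln was not tested. With a mean of 0.808 FPKM over the 8 libraries, Tagln fell under the filter of 1 FPKM, so 9 of the 10 genes entered the test. Its difference on the log2(FPKM + 1) scale, cHET minus control, was -0.15, with no test, and 0.038 without control 2 and cHET 3.

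**Figure D1:**
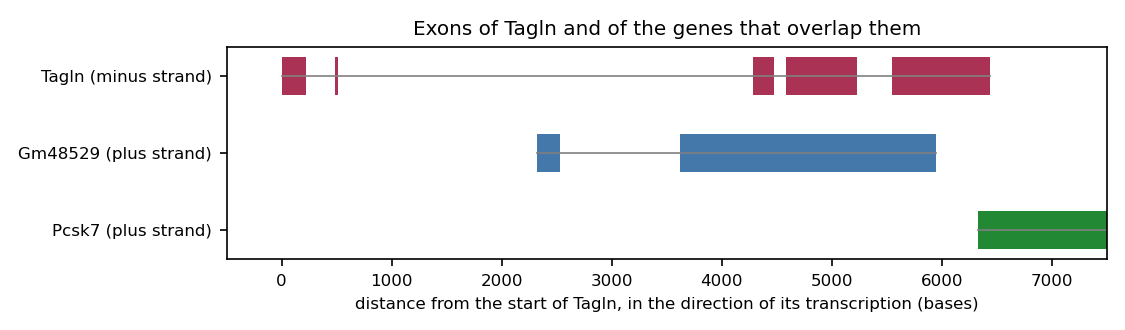
Exons of Tagln (minus strand), Gm48529 and Pcsk7 (both plus strand), drawn by distance in bases from the start of Tagln along its transcription. Gm48529 covers 1241 and Pcsk7 108 of the 1988 exonic bases of Tagln, and Pcsk7 runs on past the right edge of the plot.

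No mural gene passed the test between cHET and control. Of the 9 genes tested, 0 had a limma adjusted p under 0.05, against 3 of 13029 genes higher in cHET (0.023%) and 0 lower (0%). An unadjusted p under 0.05 was met by 1 of the 9, Mcam, against 8.95% of all genes tested. With limma voom on the rebuilt reads 0 of the 9 passed as well, and the 3 genes called over the whole table, Ndnf, Syt7 and Them6, were those of the FPKM test and stand in none of the lists used here. In none of the 10 did the groups separate, while 2.74% of all genes tested had every cHET library above every control library and 2% had every cHET library below. Values above 0 were seen for 4 of the 9 and values below 0 for 5, with a median log2 fold change of -0.038 beside 0.0086 for all genes tested. Whole hearts were measured, so the number of mural cells and the RNA per cell cannot be told apart in these values.

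**Figure D2:**
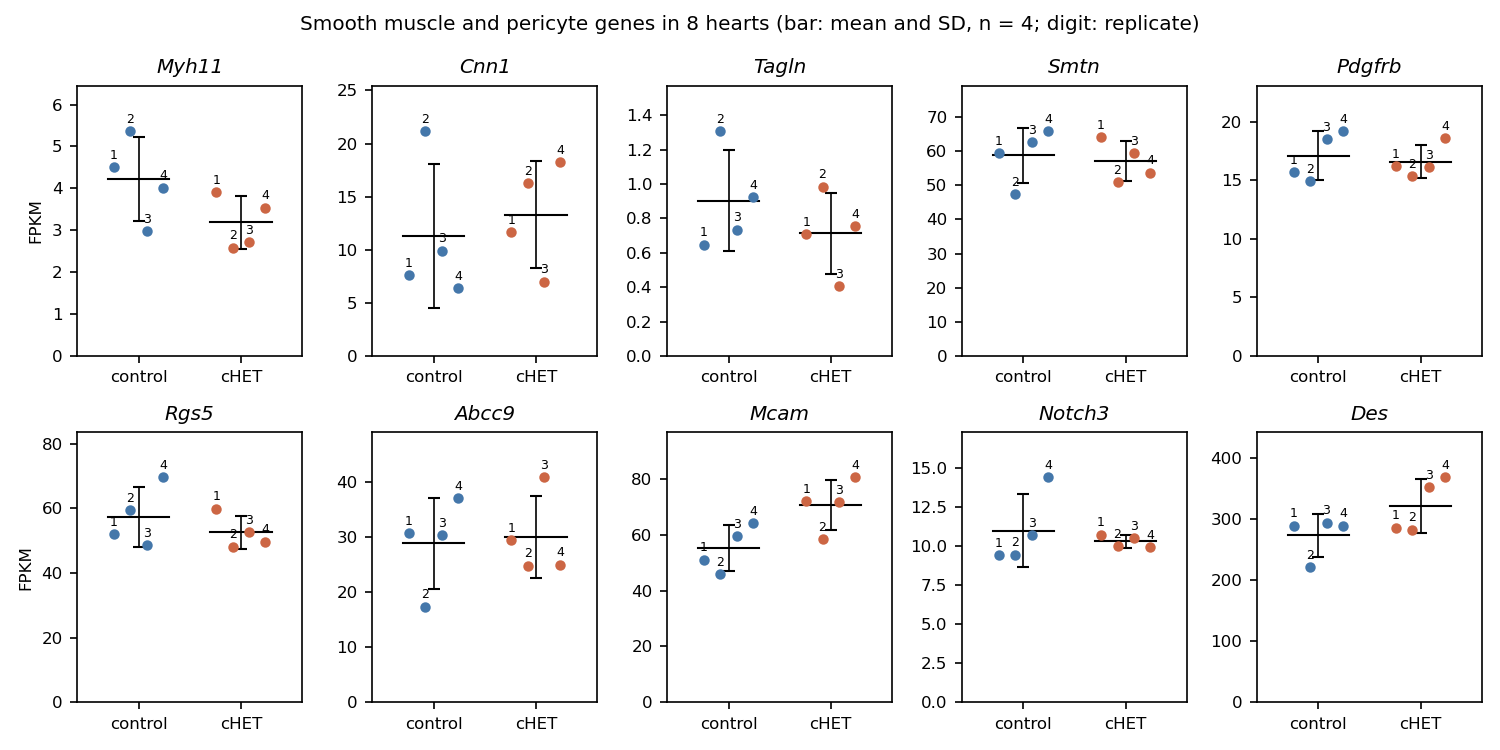
FPKM of the 10 genes in each library, with control in blue and cHET in orange; the digit is the replicate, the horizontal line the group mean and the bar the SD (n = 4). Groups overlap in every panel, Mcam included, with control libraries at 45.9 to 64.1 FPKM and cHET libraries at 58.4 to 80.4 FPKM.

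Among the contractile genes, Myh11 (ENSMUSG00000018830, chromosome 16, 14194535 to 14291372), the myosin heavy chain of smooth muscle and its most specific marker, was low in these hearts. It stood at 4.51, 5.37, 2.98 and 4.02 FPKM in control 1 to 4 and at 3.91, 2.58, 2.71 and 3.54 FPKM in cHET 1 to 4. Control 3 lay among the cHET values, and the other control libraries lay above every cHET library. Its log2 fold change was -0.31 (SE 0.159, 95% interval -0.67 to 0.049; limma, adjusted p = 0.6), a ratio of means of 0.755. The 2 libraries with the most brown fat RNA, control 1 and control 2, were also the highest in Myh11. Library cHET 2, the next highest in Ucp1 (6.56 FPKM) and Adipoq (2.14 FPKM), was the lowest in Myh11. By summed FPKM of 6 brown fat genes, led by Fabp4 and Cidea, control 1 (227) and control 2 (221) were again the highest. By that sum cHET 2 (182) lay below cHET 1 (197) and cHET 4 (191). Without control 1 and control 2, the log2 fold change was -0.11, and the part of other tissue in the value of Myh11 was not tested.

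Cnn1 (ENSMUSG00000001349, chromosome 9, 22099216 to 22109630), which encodes the calponin that restrains actomyosin in smooth muscle, was the most variable of the 10 genes. It stood at 7.58, 21.2, 9.91 and 6.36 FPKM in control 1 to 4 and at 11.7, 16.3, 6.99 and 18.3 FPKM in cHET 1 to 4. The highest and the lowest of the 8 libraries, control 2 and control 4, thus belonged to the same group, 3.33-fold apart. Its coefficient of variation was 60.2% in control and 37.9% in cHET, against 3.799 to 33.3% in the other genes of the 10. Between groups the log2 fold change was 0.29 (SE 0.374, 95% interval -0.56 to 1.13; limma, adjusted p = 0.803). It was 0.62 without control 2, 0.087 without control 4 and 0.87 without control 2 and cHET 3, a setting chosen after seeing the data (limma, adjusted p = 0.369). Tpm2, a tropomyosin of smooth and slow muscle, was likewise low in control 4 (39.7 FPKM) and cHET 3 (37.1 FPKM) and high in control 2 (72.0 FPKM), cHET 2 (79.3 FPKM) and cHET 4 (93.4 FPKM). Myl9, the regulatory light chain of smooth muscle myosin, was lowest in control 4 (347 FPKM) and highest in cHET 4 (1012 FPKM).

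Smtn (ENSMUSG00000020439, chromosome 11, 3517523 to 3540612), which encodes the actin-binding protein smoothelin, was steady. It stood at 59.4, 47.4, 62.7 and 65.9 FPKM in control 1 to 4 and at 64.0, 51.0, 59.4 and 53.7 FPKM in cHET 1 to 4. The groups overlapped over nearly their whole range, with control 2 the lowest library, the reverse of its place in Myh11, Cnn1 and Tagln. Smtn had a log2 fold change of -0.039 (SE 0.125, 95% interval -0.32 to 0.24; limma, adjusted p = 0.927), and it turned above 0 under TPM scaling (0.059). Smtn shares 16.3% of its exonic bases with Gm11946, which stood at 0.237 FPKM or less.

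Both receptor genes of pericytes differed little between groups. Pdgfrb (ENSMUSG00000024620), the receptor through which PDGF-B draws pericytes to vessels, stood at 15.7, 14.9, 18.5 and 19.2 FPKM in control 1 to 4 and at 16.2, 15.3, 16.1 and 18.6 FPKM in cHET 1 to 4. Its 8 values span 1.29-fold, the narrowest range of the 10. Pdgfrb had a log2 fold change of -0.038 (SE 0.103, 95% interval -0.27 to 0.19; limma, adjusted p = 0.912), with a sign that turned under TPM scaling (0.057). Notch3 (ENSMUSG00000038146, chromosome 17, 32120820 to 32166880), the mural Notch receptor, stood at 9.44, 9.45, 10.7 and 14.4 FPKM in control 1 to 4. In cHET 1 to 4 it stood at 10.7, 10.01, 10.5 and 9.94 FPKM, all within the control range. Control 4 alone stood apart, and the log2 fold change of -0.068 (SE 0.125, 95% interval -0.35 to 0.21; limma, adjusted p = 0.866) became 0.058 without it and 0.024 under TPM scaling.

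Rgs5 (ENSMUSG00000026678, chromosome 1, 169655501 to 169695813), a regulator that shortens G protein signals and a classic pericyte marker, stood at 51.9, 59.3, 48.6 and 69.5 FPKM in control 1 to 4. In cHET 1 to 4 it stood at 59.8, 48.2, 52.6 and 49.7 FPKM. Control 4 was again the highest library, and the groups overlapped over most of their range. Rgs5 had a log2 fold change of -0.11 (SE 0.128, 95% interval -0.40 to 0.17; limma, adjusted p = 0.774), and -0.018 without control 4.

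Abcc9 (ENSMUSG00000030249, chromosome 6, 142587862 to 142702315) encodes SUR2, the sulfonylurea receptor that joins potassium channel pores into ATP-sensitive channels in mural cells and, as a splice form, in cardiomyocytes. It stood at 30.8, 17.4, 30.5 and 37.2 FPKM in control 1 to 4 and at 29.4, 24.9, 40.9 and 25.1 FPKM in cHET 1 to 4. The lowest library was control 2 and the highest cHET 3. These are also the libraries with the highest and the lowest summed FPKM of artery wall genes, respectively. Abcc9 had a log2 fold change of 0.072 (SE 0.234, 95% interval -0.45 to 0.60; limma, adjusted p = 0.928), and it turned to -0.15 without control 2 and to -0.081 without cHET 3.

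Mcam (ENSMUSG00000032135, chromosome 9, 44134469 to 44142727), an adhesion molecule of pericytes, smooth muscle and endothelium also known as CD146, had the largest log2 fold change of the 9 genes tested on the log2(FPKM + 1) scale, while at a pseudocount of 0.1 that of Myh11 was larger in size (-0.38 against 0.36). Control 1 to 4 stood at 51.0, 45.9, 59.4 and 64.1 FPKM, and cHET 1 to 4 at 71.9, 58.4, 71.5 and 80.4 FPKM. All cHET libraries except cHET 2 lay above every control library. Mean FPKM was 55.1 ± 8.19 (control) and 70.6 ± 9.08 (cHET; SD, n = 4). The log2 fold change was 0.35 (SE 0.137, 95% interval 0.045 to 0.66; limma, unadjusted p = 0.0289, adjusted p = 0.511). It stayed above 0 in each of the 22 other settings, at 0.18 to 0.46, and passed the adjusted threshold in 0 of them (limma adjusted p 0.209 to 0.927). The value of 0.18 was that without control 1 and control 2. Summed FPKM of 8 endothelial genes was 268 to 314 in control and 269 to 287 in cHET, with overlap between groups. Taken singly these 8 genes differed in direction. Kdr (0.39) and Cdh5 (0.38) had a log2 fold change above 0 and 6 had one below, Emcn (-0.39) and Egfl7 (-0.37) among them. The part of endothelial RNA in the value of Mcam was not tested.

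Des (ENSMUSG00000026208, chromosome 1, 75360329 to 75368579) encodes desmin, the intermediate filament of muscle cells, and was the most abundant of the 10 genes. It stood at 289, 221, 294 and 289 FPKM in control 1 to 4 and at 286, 283, 352 and 368 FPKM in cHET 1 to 4. The groups overlapped in the range of 283 to 294 FPKM, with control 2 far below and cHET 3 and cHET 4 above. Des had a log2 fold change of 0.24 (SE 0.146, 95% interval -0.094 to 0.56; limma, adjusted p = 0.651), and 0.14 without control 2. In heart most Des RNA is known to come from cardiomyocytes. Summed FPKM of 10 cardiomyocyte genes was 12852 to 15541 in control and 10725 to 13306 in cHET, led by Myl2 at 3757 to 6634 FPKM. Of these 10 genes, 7 had a log2 fold change below 0 and 3 above, Ttn (0.26), Ryr2 (0.24) and Actn2 (0.22). Like Des, these 3 were lowest in control 2, as were Myh6 and Myh7 among those below 0. The part of cardiomyocyte RNA in the value of Des was not tested.

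**Figure D3:**
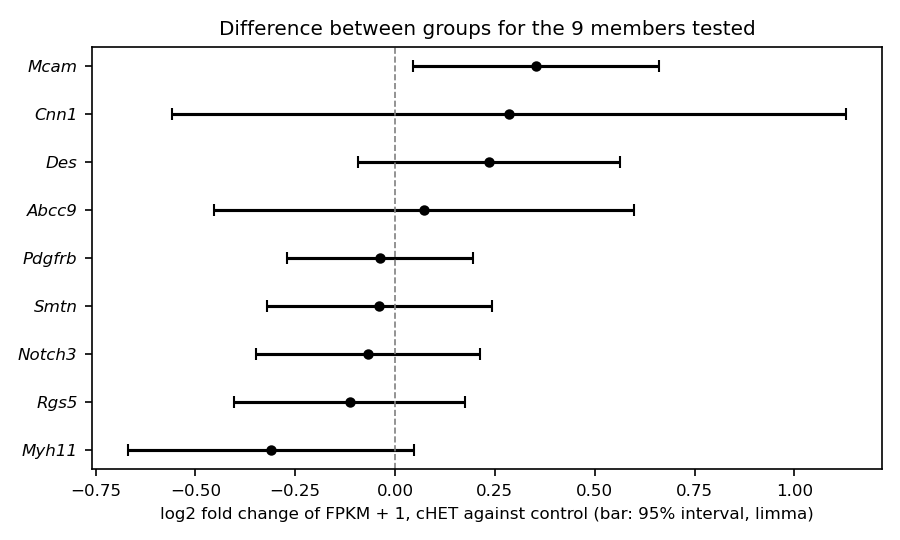
Log2 fold change of FPKM + 1, cHET against control, for the 9 genes tested, with the limma 95% interval as a bar. The interval of Mcam, 0.045 to 0.66, lies above 0 before adjustment over all genes, the other 8 include 0, and that of Cnn1, -0.56 to 1.13, is the widest.

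By level per gene length, Des (mean 298 FPKM) stood first, followed by Mcam (62.8), Smtn (57.9), Rgs5 (55.0), Abcc9 (29.5), Pdgfrb (16.8), Cnn1 (12.3), Notch3 (10.6), Myh11 (3.70) and Tagln (0.808). Des lay above Mcam in 8 of 8 libraries, and the ranges of the 2 genes did not overlap. Mcam, Smtn and Rgs5 were not ordered beyond their spread, since Mcam lay above Smtn in 4 of 8 libraries and Smtn above Rgs5 in 6 of 8. Rgs5 lay above Abcc9, Notch3 above Myh11 and Myh11 above Tagln with no overlap of ranges. Cnn1 and Notch3 exchanged places between libraries, with Cnn1 the higher in 4 of 8. Pdgfrb lay above Cnn1 in 6 of 8, and Abcc9 above Pdgfrb in 8 of 8, although their ranges over all libraries overlapped.

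Set beside their relatives, the pericyte genes stood above the relatives listed here, while of the contractile genes only Smtn did so for every relative listed. Myh11 lay below the non-muscle myosins Myh9 (13.7 to 24.7 FPKM) and Myh10 (12.9 to 26.0 FPKM) in all 8 libraries, and above Myh14 (0.724 to 2.27 FPKM) in all 8. Tagln lay below Tagln2 in all 8 and above Tagln3 in 3 of 8. Cnn1 lay below its relatives Cnn2 (44.7 to 71.6 FPKM) and Cnn3 (42.6 to 56.2 FPKM) in all 8, although Cnn3 shares 17.7% of its exonic bases with another gene. Smtn lay above Smtnl2 (19.2 to 29.9 FPKM) in all 8. Rgs5 was 3.90 to 6.38 times the FPKM of Rgs2, the next of the RGS genes listed here, within the same library. Pdgfrb was 3.59 to 5.23 times the FPKM of Pdgfra, the receptor of fibroblasts, and its ligand gene Pdgfb stood at 8.36 to 13.7 FPKM.

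Of the 4 Notch receptors, Notch3 was the highest in every library, followed by Notch4 (5.55 to 7.66 FPKM), an endothelial receptor, while Notch2 and Notch1 stood at 5.26 FPKM or less. For the ATP-sensitive channel, the receptor gene Abcc9 lay above Abcc8 (10.3 to 14.2 FPKM) in all 8 libraries. The pore gene Kcnj11, known from cardiomyocytes, stood at 18.9 to 29.5 FPKM, above the mural pore gene Kcnj8 at 11.1 to 15.3 FPKM in all 8. Des lay above Vim, the filament gene of mesenchymal cells, in 7 of 8 libraries.

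Of 18 relatives and partners tested, 7 had a log2 fold change above 0 and 11 below, with 1 at an unadjusted p under 0.05, against 8.95% of all genes tested, and 0 past limma's adjusted threshold. Myh10 had 0.41, Rgs3 -0.19, Rgs2 -0.24, Tagln2 0.12 and Vim -0.067, the last with a sign that turned under TPM scaling (0.032). Tagln2 was at 0.010 without control 1 and 0.030 without cHET 4, and at 0.197 without control 2. Rgs2 was at -0.12 without control 2.

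**Figure D4:**
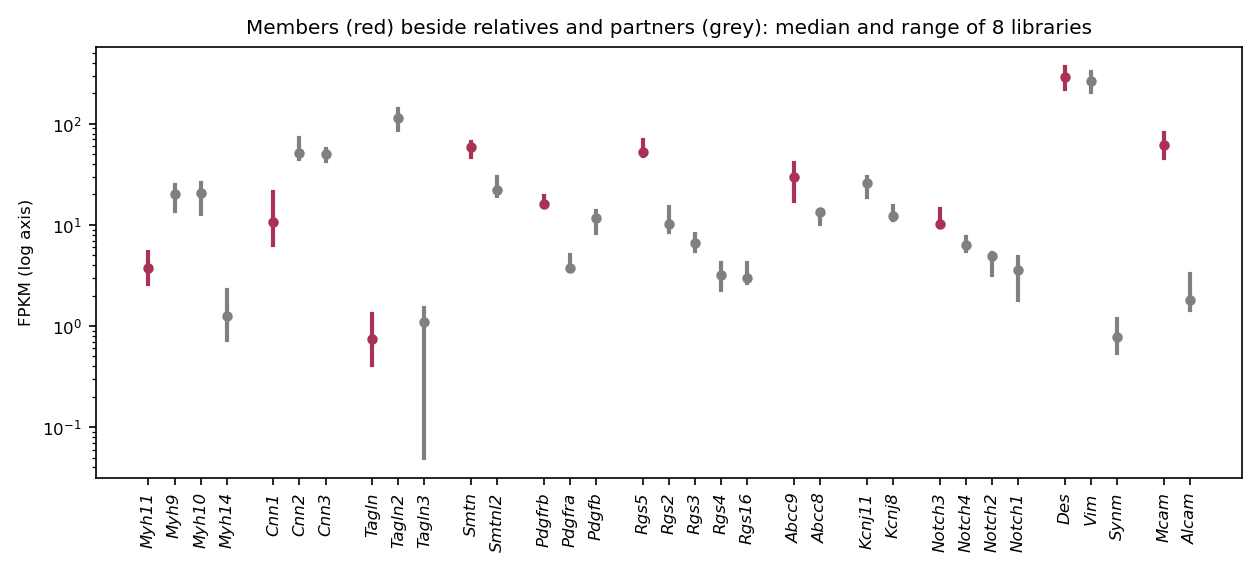
Median (point) and range (line) of FPKM over the 8 libraries on a log axis, for mural genes in red and their relatives and partners in grey. Smtnl1, listed at 0 in 1 library and at 0.211 FPKM or less in the others, is left off; Rgs5 and Notch3 stand above their relatives, and Myh11, Cnn1 and Tagln below at least 1 of theirs.

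Other genes of the same cells were counted from lists chosen beside the 10. Of 15 further contractile genes tested, 10 had a log2 fold change above 0 and 5 below, with a median of 0.023 beside 0.0086 for all genes, 0 with an unadjusted p under 0.05 and 0 past limma's adjusted threshold. Acta2, the smooth muscle actin that immature cardiomyocytes also transcribe, had a mean of 439 ± 210 FPKM over control libraries and 553 ± 150 FPKM over cHET libraries (SD, n = 4; log2 fold change 0.39, limma adjusted p = 0.696). Ppp1r12a, the targeting subunit of myosin phosphatase, had 0.17, Myl9 0.39 and Tpm1, the most abundant of the list, 0.023. These 3 had limma adjusted p-values of 0.659 to 0.967. Acta2 was at 0.69 without control 2 and 0.25 without cHET 3. Myl9 was at 0.62 without control 2, 0.135 without control 4 and 0.255 without cHET 4, and Tpm1 turned below 0 without control 4 (-0.098).

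Of 14 further pericyte genes tested, 13 had a log2 fold change below 0, against 47.9% of all genes tested, with a median of -0.080 beside 0.0086 for all genes. An unadjusted p under 0.05 was met by 3, against 8.95% of all genes tested, and 0 passed limma's adjusted threshold. Some lists of other cell types had the same sign, with 8 of 8 fibroblast genes, 7 of 7 macrophage genes and 6 of 6 epicardial genes tested below 0. Others were mixed, with endothelial genes 2 above 0 and 6 below, cardiomyocyte genes 3 and 7, and brown fat genes 2 and 2. Colec11, which encodes a secreted lectin, was the 1 gene of this list whose groups separated, against 2% of all genes in that direction. It stood at 18.2, 17.3, 13.5 and 15.0 FPKM in control 1 to 4 and at 13.1, 11.5, 10.7 and 9.06 FPKM in cHET 1 to 4 (log2 fold change -0.49, SE 0.127; limma, adjusted p = 0.337). Foxs1, a transcription factor of mural cells, had -0.49 (limma, adjusted p = 0.524), with cHET 3 the lowest library. The only value above 0 was that of Cspg4, the proteoglycan NG2 of pericytes, with means of 6.55 ± 0.517 (control) and 8.44 ± 1.79 FPKM (cHET; SD, n = 4; 0.31; limma, adjusted p = 0.552). The abundant genes Ndufa4l2 and Cox4i2, which pericytes carry as variants of respiratory subunits, had -0.023 and -0.25, the former above 0 under TPM scaling (0.074).

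Signals that recruit and mature mural cells gave 0 calls by limma among 17 genes, 8 above 0 and 9 below, with 4 at an unadjusted p under 0.05 against 8.95% of all genes tested. Angpt1, the ligand by which mural cells act on endothelial Tek, stood at 5.76, 9.84, 8.92 and 4.95 FPKM in control 1 to 4 and at 4.05, 5.18, 2.31 and 1.61 FPKM in cHET 1 to 4. Of the cHET libraries only cHET 2 reached into the control range, above control 4 (log2 fold change -1.0, SE 0.293; limma, adjusted p = 0.401). Angpt1 shares 14.2% of its exonic bases with Gm17473. Hes1, a Notch target, separated between groups, with control libraries at 15.5 to 19.15 FPKM and cHET libraries at 19.17 to 21.7 FPKM, against 2.74% of all genes in that direction (0.23; limma, adjusted p = 0.507), and Dll4, a Notch ligand of endothelium, had 0.32 (limma, adjusted p = 0.486). The endothelial receptor genes Eng and S1pr1 had -0.25 and 0.31, both short of the threshold (limma, adjusted p = 0.565 and 0.572).

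Regulators upstream of the contractile genes, 10 in all, gave 0 calls by limma, with 1 at an unadjusted p under 0.05, near the 8.95% of all genes tested, and with 5 above 0 and 5 below. Foxc1, a forkhead factor of vascular mural cells, stood at 4.25, 5.36, 4.27 and 3.03 FPKM in control 1 to 4 and at 2.89, 2.90, 2.26 and 2.57 FPKM in cHET 1 to 4, with no overlap, against 2% of all genes in that direction (log2 fold change -0.50, SE 0.137; limma, adjusted p = 0.359). Fhl2, an SRF cofactor abundant in heart, had -0.27 (limma, adjusted p = 0.595). Mean FPKM of Srf was 33.2 ± 9.84 (control) and 37.5 ± 3.25 (cHET), and that of Myocd was 7.23 ± 4.01 and 9.16 ± 1.499 (SD, n = 4). Both were lowest in control 1 and control 2, and without these libraries their log2 fold changes turned from 0.21 and 0.42 to -0.14 and -0.15.

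RefSeq promoter windows (GRCm38.p6, 250 bases before to 50 after the start) were at hand for 7 of the 10 genes and were searched on both strands. Myh11, Tagln and Pdgfrb had no window and were not searched. The CArG box, the binding sequence of SRF, was found in 0 of the 7, and in 1.63% of 32851 windows of all genes. With a share this low, 0 of 7 cannot tell these genes from all genes. The RBPJ motif TGGGAA, through which Notch receptors act, was found in the windows of Smtn and Abcc9, and in 25.6% of all windows. These are matches of letters in a short window and say nothing on sites elsewhere.

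Artery wall genes were summed for each library. Summed FPKM of 8 artery wall genes was 396, 901, 491 and 492 in control 1 to 4 and 445, 575, 195 and 503 in cHET 1 to 4. Eln, the gene of elastin, the protein that gives large arteries their recoil, was the most abundant of them, and its FPKM was 609 in control 2 against 60.6 in cHET 3. Control 2 was the highest library for 5 of the 8 artery wall genes and 8 of 16 further contractile genes, against 22.5% of all genes tested. Among the 10 it was the highest for 3, Myh11, Cnn1 and Tagln, a share near that background. Library cHET 3 was the lowest for 5 of the 8 and 7 of the 16, against 12.2% of all genes tested, but among the 10 for Tagln alone. Smtn, Pdgfrb, Abcc9, Mcam and Des were lowest in control 2, while Smtn, Pdgfrb, Rgs5 and Notch3 were highest in control 4. The shares of all genes lowest in control 2 or highest in control 4 were not counted. These places thus cannot be read as particular to the 10 genes. The part of artery wall, atrial or red cell RNA in the values of the 10 genes was not tested.

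**Figure D5:**
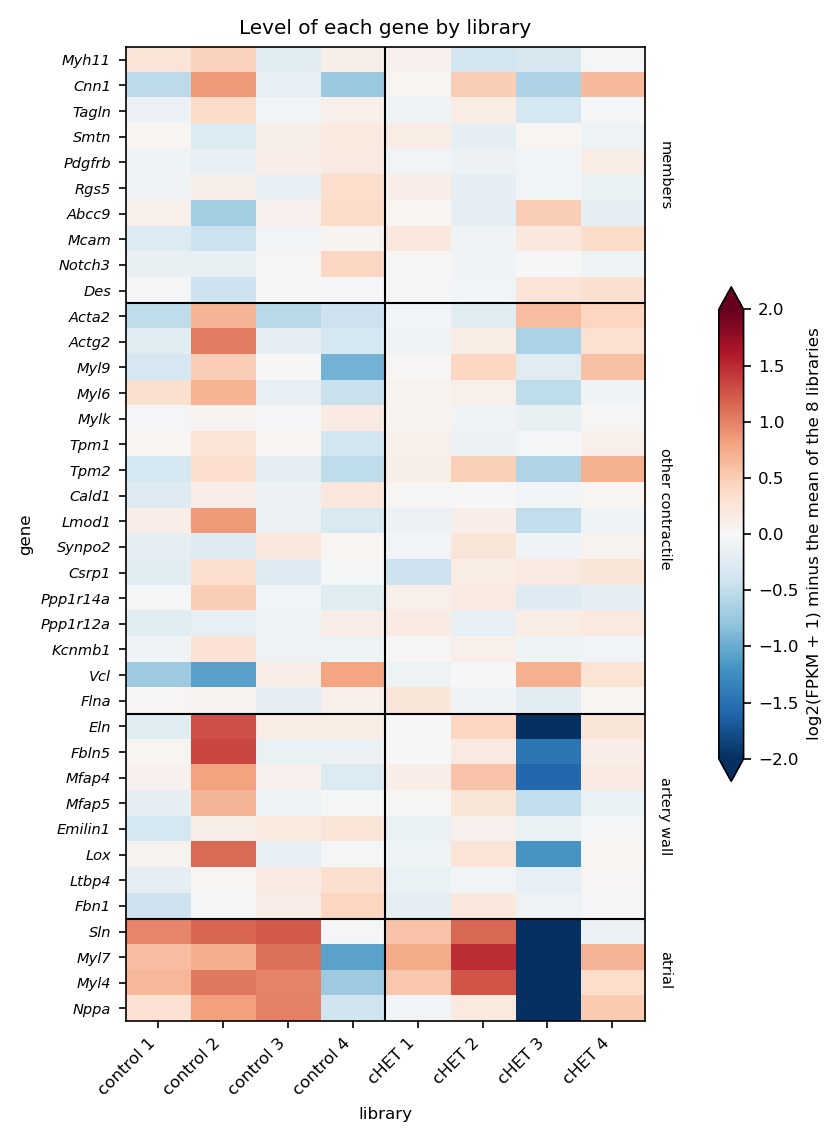
Each cell is the log2(FPKM + 1) of a gene in a library minus that gene's mean over the 8 libraries, in red above and blue below, with colours held at the ends of the scale beyond 2. Of the 8 artery wall genes, 5 are highest in control 2 and the same number lowest in cHET 3, where atrial genes are lowest too, while Emilin1, Ltbp4 and Fbn1 are highest in control 4 and lowest in control 1. Tagln is highest in control 2 and lowest in cHET 3, and Abcc9 the reverse.

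Of the artery wall genes 8 of 8 were below 0, with a median log2 fold change of -0.26, 0 at an unadjusted p under 0.05 and 0 calls by limma. Lox, which crosslinks elastin, had -0.49, Fbln5 -0.57, Eln -0.67 and Ltbp4 -0.16, with limma adjusted p-values of 0.686 to 0.711. Without control 2 and cHET 3 the values of Lox, Fbln5 and Eln were 0.115, 0.17 and 0.21, opposite in sign. Eln made up most of the sum in every library except cHET 3, and Emilin1, Ltbp4 and Fbn1 did not share its order of libraries.

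Other cell types that a whole heart holds were checked by their markers. Fibroblast genes summed to 570 to 820 FPKM over control libraries and 500 to 837 over cHET libraries, led by Col3a1 and Col1a1. Macrophage genes, led by Lyz2 and C1qa, summed to 70.2 to 138 and 54.9 to 84.3 FPKM. Epicardial genes, led by Msln and Upk3b, summed to 39.6 to 87.5 FPKM over control libraries and 16.9 to 37.5 over cHET libraries, with no overlap. Taken singly, only Msln of the 6 separated, against 2% of all genes in that direction. Wt1 had means of 2.92 (control) and 2.93 FPKM (cHET). The part of epicardial RNA in the values of the 10 genes was not tested. Skeletal muscle, lung, glial and T cell lists summed to 7.03 FPKM or less in every library, with the myogenic gene Myod1 at 0 in all 8.

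For Myh11, the 5 protein-coding genes with the most similar profile over the 8 libraries were Zdhhc14, Lpcat2, Pusl1, Ephx1 and Slc18b1. Their root mean square difference from Myh11 was 0.095 to 0.12 on the log2 scale, where the median of 11313 genes was 0.31. For Rgs5 they were Rbm34, Osbpl7, Crispld2, Hgsnat and Fgfr3, at 0.077 to 0.097 against a median of 0.23. Each of the first 5 was highest in control 2 and each of the second 5 in control 4, as were Myh11 and Rgs5. The genes were picked for likeness over the same 8 libraries, so small differences and a shared highest library come with the choice.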

How the data were processed

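The authors deposited 1 table of FPKM for 54532 genes and 8 libraries, per the file headers, with the gene length they used. Tools named in the submitters' processing notes, with no role, are DESeq2 1.20.0, featureCounts 1.5.0-p3 and HISAT2 2.0.5, and the build named is mm9. Of the coordinates, 98.3% over 54495 shared identifiers equal those of GENCODE M21 on GRCm38, which is used here. Poly-T beads selected the mRNA, per the labels' protocols. FPKM times length gave whole reads for 100% of values within 0.05 reads. Genes with a mean of at least 1 FPKM (13029) were tested as log2(FPKM + 1), which understates changes of low genes, with limma 3.58.1 in R 4.3.3 (trend and robust eBayes), cHET against control, two-sided, adjusted by Benjamini-Hochberg over all genes tested at 0.05. The fit was tested on simulated data.

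The 10 genes, the lists and the alternatives were chosen with earlier results of these data known. Named in the text are the 10 genes; of each of 6 pathway lists any gene called, the 3 with the smallest p and the 2 with the highest mean; of 12 cell type lists the 2 with the highest mean; and 5 genes per profile for Myh11 and Rgs5. Ucp1, Adipoq, Tpm2, Pln, Myod1, Wt1, Emilin1, Fbn1, Actn2, Ttn, Ryr2, Myh6, Myh7, Kdr and Emcn were named after their values were seen. So were Ndnf, Syt7, Them6 and the relatives and overlapping genes. Of 169 list symbols all were found, 2 by a newer symbol (Gucy1a1, Gucy1b1). The 22 alternatives cover scaling, filter, pseudocount, eBayes settings, voom, library weights, replicate block, sex and libraries left out. Exon overlap was measured on GENCODE M21 without regard to strand.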

Additional observations from a re-analysis of the deposited data

Results flagged for a closer look

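In 56 groups of 4 libraries, for the 10 genes and 18 marker lists, 3 single libraries lay far from the other 3 of their group by Dixon's ratio, and chance gives about 1 in 20. Des was at 221.4 FPKM in control 2 and at 289.2 to 294.2 FPKM in the other control libraries. The summed FPKM of further contractile genes was 3059 in cHET 4 and 2485 to 2575 in the other cHET libraries. The summed FPKM of epicardial genes was 87.46 in control 2 and 39.56 to 47.44 in the other control libraries.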

How the results depend on the processing

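Over 22 other settings 0 of the 9 genes passed limma's adjusted threshold, nor did Tagln where a lower filter let it be tested (limma adjusted p 0.76 to 0.765), and Myh11, Cnn1, Rgs5, Mcam and Des kept their direction in all 22. Under TPM scaling the median of all genes moved to 0.10. The log2 fold change there was 0.0588 for Smtn, 0.0575 for Pdgfrb, 0.0239 for Notch3, 0.0738 for Ndufa4l2 and 0.0322 for Vim. All were opposite in sign to the values as reported, and all lay below that median. Rescaling without mtDNA-encoded genes gave 0.0236, 0.0219 and 0.0384 for Smtn, Pdgfrb and Ndufa4l2, below a median of 0.061 for all genes. Both scalings apply 1 factor to all genes of a library. Library weights gave -0.0946 for Abcc9 and 0.0681 for Ndufa4l2, voom 1.24e-05 for Ndufa4l2, quantile normalization 0.00793 for Vim, and sex as a covariate 0.00277 for Smtn. Without control 1 and control 2 Abcc9 was at -0.187, Ndufa4l2 at 0.0521, Myocd at -0.151 and Srf at -0.139. Without control 2 and cHET 3, chosen after seeing the data, Abcc9 was at -0.298, Ndufa4l2 at 0.0611, Vim at 0.121, Lox at 0.115, Fbln5 at 0.173, Eln at 0.207 and Tagln, untested, at 0.0377. Leaving out each library in turn gave -0.138 to 0.018 for Smtn, -0.0964 to 0.0183 for Pdgfrb, -0.145 to 0.205 for Abcc9, -0.128 to 0.0584 for Notch3, -0.098 to 0.111 for Tpm1, -0.0767 to 0.0416 for Ndufa4l2 and -0.131 to 0.036 for Vim. Beyond the factor per library of the 2 scalings, the cause of these turns was not tested.

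Calls over all genes went from 3 to 11 with library weights and to 1 with the replicate block. Same-numbered libraries correlated at 0.052 to 0.29 in their deviations from the group means, not above 0.1 in every pair, so the numbers were not taken to pair animals. For control 1, 2 and 3 the same-numbered cHET library was the best match, at 0.29, 0.27 and 0.052. For control 4 the best match was cHET 3, at 0.34. A structure shared by number is thus not excluded. With 4 libraries a group, the intervals leave room for changes as large as their bounds.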
